A study of Homo sapiens with 24 samples.

Results

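The genes described here are 9 calcium signalling genes measured in ovarian carcinoma cells. They are 6 genes for the pore-forming alpha1 subunit of voltage-gated calcium channels (CACNA1A, CACNA1B, CACNA1C, CACNA1D, CACNA1G and CACNA1H), 2 genes for the beta subunit (CACNB1 and CACNB3) and ADRA1D, the gene of the alpha-1D adrenergic receptor. They were taken by name from a list of calcium signalling genes that was chosen by its expression values in these same libraries, between the lines and after drug treatment, as known from an earlier analysis. Which comparison chose which gene is not recorded. Every adjusted p of a member below therefore comes from a fit across all genes, describes its change against the spread between libraries, and is no independent evidence. All 9 were found among the 28277 genes of each deposited count table. PEO1 and PEO4 are established high-grade serous ovarian carcinoma lines derived from the same donor before and after resistance to chemotherapy. The first table holds 6 libraries of untreated cells: PEO1 A, which the labels give as wild type for the line and which lacks BRCA2 function, and PEO4 A, which has it. The second table holds 18 libraries: PEO1 BRCA+ (genotype BRCA2+ in the labels), a variant of PEO1 that regained BRCA2 function, and PEO4 B (genotype WT), each untreated or after 2 h or 6 h in medium with 5 µM pyridostatin (PDS), a small molecule that binds G-quadruplexes. Each of the 8 conditions had 3 libraries. PEO1 A and PEO4 A were grown with added sodium pyruvate and the other cultures were not, the study states polyA enrichment for its RNA sequencing but a kit only for the A libraries, and no vehicle is stated for the untreated cells. The line, the culture and any difference in library preparation therefore cannot be told apart where the first pair is set against the second.

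Voltage-gated calcium channels open when the membrane depolarizes and let calcium into the cell. The alpha1 subunit forms the pore and sets the channel type: CACNA1A encodes the P/Q-type pore (Cav2.1), CACNA1B the N-type pore (Cav2.2), CACNA1C and CACNA1D L-type pores (Cav1.2 and Cav1.3), and CACNA1G and CACNA1H T-type pores (Cav3.1 and Cav3.2), which open at low voltage and need no beta subunit. Beta subunits bind the pore inside the cell and carry it to the membrane, and alpha2delta subunits support it from outside. ADRA1D responds to noradrenaline and adrenaline and couples to Gq, which activates phospholipase C and releases calcium from internal stores through IP3 receptors. These channels are best known from neurons, muscle and endocrine cells, and several are also transcribed in carcinoma cells.

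The promoters of the channel genes are shown because PDS binds G-quadruplexes, structures that form in DNA with several runs of guanine. The RefSeq promoter table of GRCh38.p14 was matched for 6 members with 8 start sites (CACNA1A, CACNA1B, CACNA1C, CACNA1D, CACNB1 and 3 starts of CACNB3), and CACNA1G, CACNA1H and ADRA1D had no match. The 250 bases before each start were searched on both strands for 4 or more runs of at least 3 G joined by loops of 1 to 7 bases of any kind. The motif was present in 7 of the 8 member windows (87.5%) and in 8236 of all 35116 windows of the table (23.5%). The member windows had a median GC content of 72.6% against 58.0% over all windows. Among windows of at least 65% GC, 85.7% of the members' and 50.5% of all held the motif. All member windows but that of CACNA1A (58.8% GC) passed this cut. They include the 3 starts of CACNB3 (65.2 to 68.8% GC), which are not independent, and the others ran from 76.4 to 85.6% GC. The cut therefore does not match the GC content of the members to that of all windows. Below are the windows of 4 genes whose levels followed different courses, CACNA1B and CACNA1A, which fell in PEO4 after PDS, CACNA1D, whose change there did not pass the test, and CACNA1C, which PEO4 hardly expressed. Each is written along the gene's strand, and capitals mark the motif. In CACNA1A the motif lies on the opposite strand and is seen as runs of C. The CACNA1C window precedes a start site inside the annotated gene, not its first one. In GENCODE the genes CACNA1A and CACNA1D also extend upstream of the windows shown.
CACNA1B, chr9:137877532-137877781, plus strand: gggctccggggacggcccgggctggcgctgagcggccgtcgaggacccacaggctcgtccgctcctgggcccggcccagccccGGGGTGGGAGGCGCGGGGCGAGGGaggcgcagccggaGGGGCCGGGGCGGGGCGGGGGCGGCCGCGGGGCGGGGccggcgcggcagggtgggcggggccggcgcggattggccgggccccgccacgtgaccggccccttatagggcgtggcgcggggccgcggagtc
CACNA1A, chr19:13506480-13506729, minus strand: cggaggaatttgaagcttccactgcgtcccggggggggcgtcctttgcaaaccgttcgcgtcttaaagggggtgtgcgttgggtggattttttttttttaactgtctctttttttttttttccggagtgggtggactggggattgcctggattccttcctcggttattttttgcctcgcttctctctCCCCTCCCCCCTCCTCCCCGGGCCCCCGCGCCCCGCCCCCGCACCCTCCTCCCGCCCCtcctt
CACNA1D, chr3:53494361-53494610, plus strand: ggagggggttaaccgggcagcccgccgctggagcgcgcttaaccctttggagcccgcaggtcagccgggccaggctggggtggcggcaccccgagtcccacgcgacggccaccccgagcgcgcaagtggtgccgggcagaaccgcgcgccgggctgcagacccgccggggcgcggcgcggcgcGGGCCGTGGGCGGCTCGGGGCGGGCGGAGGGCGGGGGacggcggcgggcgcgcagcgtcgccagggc
CACNA1C, chr12:2052737-2052986, plus strand: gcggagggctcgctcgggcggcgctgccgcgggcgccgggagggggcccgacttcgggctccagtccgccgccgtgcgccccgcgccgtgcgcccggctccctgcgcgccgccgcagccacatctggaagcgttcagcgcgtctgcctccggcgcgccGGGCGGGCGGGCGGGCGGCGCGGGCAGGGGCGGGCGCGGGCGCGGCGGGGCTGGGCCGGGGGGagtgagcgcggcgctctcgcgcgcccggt
CACNA1B had 2 separate motifs over 61 bases, CACNA1A 1 over 58 bases, CACNA1D 1 over 37 bases and CACNA1C 1 over 63 bases. A match is a description of the letters only, and no G-quadruplex was measured here. The study reported a negligible average change after PDS for genes that it linked to promoter G-quadruplexes. For genes linked to intronic or intergenic ones it reported larger average falls in PEO4, and those regions were not searched here.

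Markers of the label were detected. All 10 ovarian carcinoma markers examined, PAX8 and EPCAM among them, were above 3 counts in some library of every condition. That limit is low, and some markers of other cell types passed it too. The summed level of the 10 was 6780 CPM or more in every library, with a keratin the highest in each condition. Totals on genes ran from 32528913 to 63882077 counts in the first table, and in the second from 18699929 to 22375644 in untreated and from 33260167 to 43713947 in PDS libraries. Ribosomal RNA genes took 0.217 to 0.474% of counts in the untreated libraries of the second table and 0.0163 to 0.0369% in its PDS libraries. In the first table they took 2.97e-05 to 0.000208%. Neither the depth nor this share was tested for its part in the PDS results or in the difference of the 2 pairs. BRCA2 itself had 8.24 ± 0.297 CPM in PEO1 A, 13.5 ± 2.44 in PEO4 A, 8.25 ± 0.492 in untreated PEO1 BRCA+ and 8.17 ± 0.987 in untreated PEO4 B (SD, n = 3 each). CPM are counts scaled to the library total after TMM, a correction for library composition. In bulk RNA, fewer cells that express a gene and less RNA per cell cannot be told apart.

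The comparisons used edgeR's quasi-likelihood test, p-values were adjusted by the method of Benjamini and Hochberg across every tested gene, and a gene was called when its log2 fold change exceeded 1 in either direction with an adjusted p below 0.05. Of the 9 members, 8 had enough counts to be tested in the first table (all but ADRA1D) and 9 in the second. In PEO4 A against PEO1 A, 2 members were higher and 2 lower, where 12.6% of all tested genes were higher and 13.1% lower. In untreated PEO4 B against PEO1 BRCA+, 3 were higher and 2 lower (12.2% and 12.6% of all genes), and the 2 lower ones, CACNA1C and CACNA1H, were not tested with only those 2 groups in the fit, for too few counts. After 2 h of PDS edgeR called 0 members in PEO1 BRCA+ (7.57% of all genes in either direction), and 3 fell in PEO4 B (11.0% of all genes fell). After 6 h, 3 fell in PEO1 BRCA+ (6.83% of all genes) and 5 in PEO4 B (16.3%). The 3 in PEO1 BRCA+, CACNA1C, CACNA1G and CACNA1H, were likewise not tested with only the groups compared, and 1 member was called without untreated replicate 1 or 3 or without replicate 2 or 3 at 6 h (with replicate 2 left out at 6 h it was ADRA1D, and all 3 lost the call). From 2 h to 6 h, 2 fell in PEO4 B (9.71% of all genes) and edgeR called 0 in PEO1 BRCA+ (0.170% of all genes in either direction), where 1 had an unadjusted p under 0.05 and DESeq2's Wald test also called 0. At 6 h PEO4 B had 2 members lower than PEO1 BRCA+ (13.5% of all genes), CACNA1C and CACNA1H, neither of which had enough counts to be tested with only those 2 groups in the fit. The response of PEO4 B was below that of PEO1 BRCA+ for 1 member at 2 h (4.92% of all genes) and for 2 at 6 h (9.34%). The difference of the first untreated pair was above that of the second for 1 member (6.27% of all genes) and below it for 2 (8.74%). For the 2 h comparison in PEO1 BRCA+, 2 members had an adjusted p under 0.05 with a change below the fold threshold, the same 2 had an unadjusted p under 0.05, and DESeq2's Wald test called 0. These counts describe the chosen genes and say nothing of the family.

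**Figure D1:**
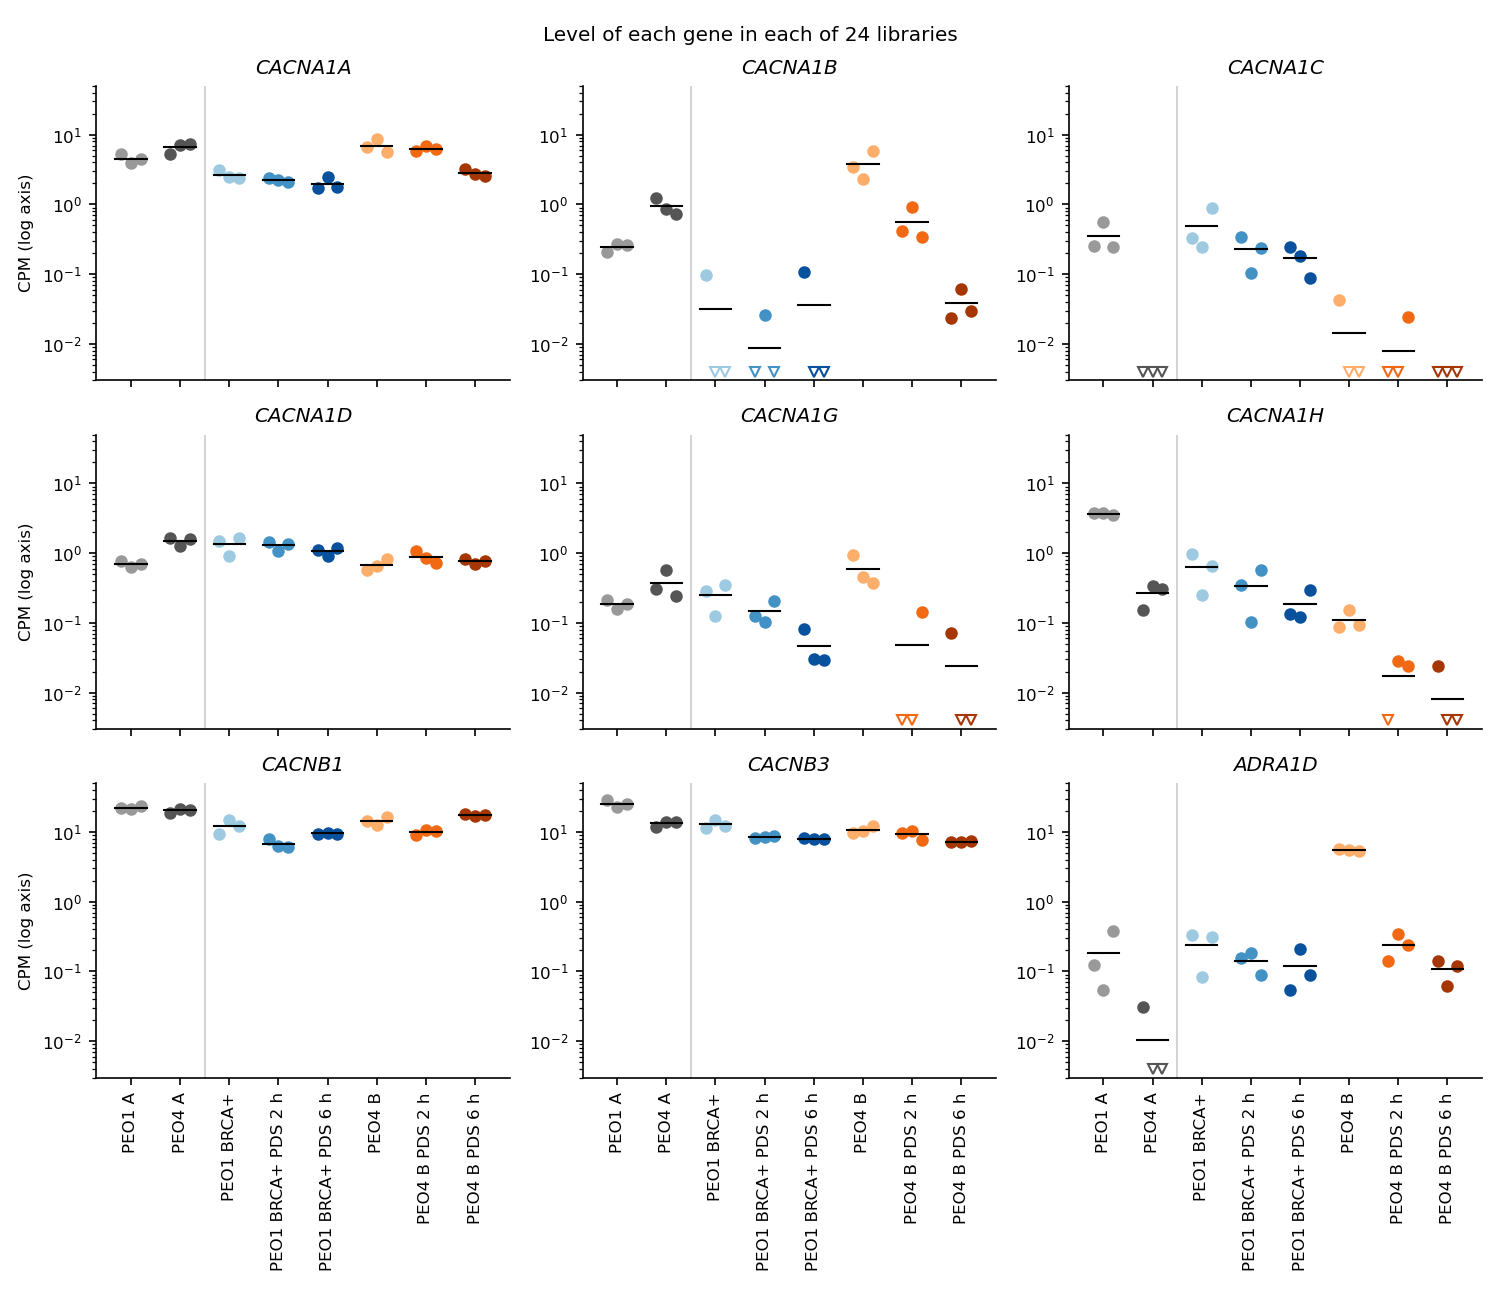
Level of the 9 genes in each of the 24 libraries, in CPM on a log axis, by condition. Filled circles are libraries, black bars are means of 3 libraries, open triangles at the bottom are libraries with 0 counts, and the grey line separates the 2 tables. ADRA1D stands between 5.34 and 5.76 CPM in untreated PEO4 B and at or under 0.376 CPM in every other library.

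ADRA1D fell in PEO4 B at both times of PDS. Untreated PEO4 B held 133, 110 and 116 counts, or 5.76, 5.52 and 5.34 CPM. After 2 h of PDS its libraries held 5, 12 and 10 counts (0.139, 0.340 and 0.240 CPM), and after 6 h 6, 2 and 4 counts (0.143, 0.0610 and 0.120 CPM). The treated libraries were deeper than the untreated ones. The receptor gene was 22.8-fold lower at 2 h (log2 fold change -4.51, SE 0.31, edgeR adjusted p = 5.2e-12) and 48.4-fold lower at 6 h (-5.60, SE 0.35, edgeR adjusted p = 7.4e-13), with no overlap between libraries. From 2 h to 6 h the change in ADRA1D of -1.08 (SE 0.52, edgeR adjusted p = 0.075) did not pass, and the libraries overlapped. It passed without replicate 1 at 2 h (-1.34, edgeR adjusted p = 0.037).

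In PEO1 BRCA+ the gene was low throughout. Its libraries held 7, 2 and 7 counts untreated (0.335, 0.0826 and 0.307 CPM), 5, 7 and 3 at 2 h and 2, 7 and 3 at 6 h, with changes of -0.70 (SE 0.55, edgeR adjusted p = 0.30) and -1.01 (SE 0.58, edgeR adjusted p = 0.15). The 6 h change passed without untreated replicate 2 (edgeR adjusted p = 0.042) or without replicate 2 at 6 h (0.044). Untreated PEO4 B therefore stood 23.1-fold above untreated PEO1 BRCA+ (log2 fold change 4.53, SE 0.34, edgeR adjusted p = 1.4e-11). At 6 h the lines overlapped and differed by -0.06 on the log2 scale (95% interval -1.33 to 1.20). The response of PEO4 B was stronger than that of PEO1 BRCA+ by -3.81 at 2 h (SE 0.69, edgeR adjusted p = 0.00010) and -4.59 at 6 h (SE 0.79, edgeR adjusted p = 3.8e-05). The high level was not seen in the other PEO4 culture: PEO4 A held 2, 0 and 0 counts against 6, 2 and 20 in PEO1 A, a ratio of pooled rates of 13.4 in favour of PEO1 A (95% exact interval 3.39 to 116, counting error only). PEO1 A replicate 3 held 20 of those counts, and without it the ratio for ADRA1D was 6.23 (1.24 to 60.2). ADRA1D lies on the minus strand of chromosome 20 (4220630 to 4249287, GRCh38) in 2 exons.

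CACNA1A had the most counts of the member pores in the second table. PEO4 B held 6.58, 8.59 and 5.71 CPM untreated, 5.83, 6.88 and 6.22 at 2 h and 3.22, 2.78 and 2.57 at 6 h. The P/Q-type gene thus overlapped its untreated level at 2 h (log2 fold change -0.14, 95% interval -0.45 to 0.17) and fell 2.42-fold by 6 h (-1.27, SE 0.16, edgeR adjusted p = 1.7e-07), most of it between 2 h and 6 h (-1.14, SE 0.16, edgeR adjusted p = 1.1e-06). PEO1 BRCA+ held 3.16, 2.48 and 2.37 CPM untreated, 2.36, 2.25 and 2.09 at 2 h and 1.74, 2.49 and 1.76 at 6 h. Its 6 h change of -0.42 (SE 0.19, edgeR adjusted p = 0.067) did not pass. The difference between the 6 h responses was -0.85 (SE 0.25, edgeR adjusted p = 0.0068), below the fold threshold. Before PDS, CACNA1A was 2.61-fold higher in PEO4 B than in PEO1 BRCA+ (1.38, SE 0.17, edgeR adjusted p = 1.4e-07), and after 6 h the lines were 0.53 apart (SE 0.18, edgeR adjusted p = 0.010). In the first pair the gap was smaller: 5.33, 3.87 and 4.47 CPM in PEO1 A overlapped 5.22, 7.20 and 7.47 in PEO4 A (0.53, SE 0.19, edgeR adjusted p = 0.028). The gene lies on the minus strand of chromosome 19 (13206442 to 13506479 in RefSeq), and its canonical transcript has 47 exons.

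CACNA1B, the N-type pore, was present in PEO4 B and almost without counts in PEO1 BRCA+. PEO4 B held 79, 46 and 126 counts untreated (3.42, 2.31 and 5.80 CPM), 15, 32 and 14 at 2 h (0.417, 0.906 and 0.336 CPM) and 1, 2 and 1 at 6 h. PEO1 BRCA+ held 2, 0 and 0 counts untreated, 0, 1 and 0 at 2 h and 4, 0 and 0 at 6 h. No PEO4 B library of 1 time overlapped those of another. The fall was 7.03-fold at 2 h (log2 fold change -2.81, SE 0.40, edgeR adjusted p = 1.9e-06), and the pooled rate at 6 h was 104.8-fold below untreated (95% exact interval 40.4 to 388, edgeR adjusted p = 2.5e-09) and 14.6-fold below 2 h (5.42 to 55.3, edgeR adjusted p = 0.00026). Untreated, the pooled rate in PEO4 B was 131.6-fold that of PEO1 BRCA+ (36.1 to 1092, edgeR adjusted p = 1.3e-08), and at 6 h no library of either line had more than 4 counts. The 2 counts of untreated PEO1 BRCA+ lay in replicate 1, so the size of the untreated ratio rests on that library. The test of the 6 h responses of the lines called CACNA1B (edgeR adjusted p = 0.0080). PEO1 BRCA+ was at the counting limit before PDS, so a fall there could not be seen and the responses cannot be compared. The same test at 2 h did not call CACNA1B (edgeR adjusted p = 0.76). The 6 h call was lost without PEO1 BRCA+ replicate 1 at 6 h, which held all 4 counts of its group (edgeR adjusted p = 0.93). The first pair differed in the same direction by less: PEO1 A held 0.209, 0.267 and 0.263 CPM and PEO4 A 1.23, 0.851 and 0.735, a 3.85-fold difference (1.95, SE 0.41, edgeR adjusted p = 0.0012). The gene lies on the plus strand of chromosome 9 (137877782 to 138124619) downstream of the promoter printed above.

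CACNA1C, the main L-type pore of heart and smooth muscle, was detected in PEO1 and hardly in PEO4. PEO1 A held 12, 21 and 13 counts and PEO4 A held 0 in all 3 libraries, so that the gene was at least 14.7-fold lower in PEO4 A (computed at 3 counts over the group, edgeR adjusted p = 0.00080). PEO1 BRCA+ held 7, 6 and 20 counts untreated, 11, 4 and 8 at 2 h and 9, 6 and 3 at 6 h, and PEO4 B held 1, 0 and 0, then 0, 0 and 1, then 0 throughout. The pooled rate untreated was 31.5-fold higher in PEO1 BRCA+ than in PEO4 B (95% exact interval 5.27 to 1280, edgeR adjusted p = 0.00029), and at 6 h it was at least 6.24-fold higher (edgeR adjusted p = 0.0012). Of the untreated counts, 20 of 33 in PEO1 BRCA+ lay in replicate 3 and the 1 in PEO4 B in replicate 1. The size of the untreated ratio therefore rests on single libraries. In PEO1 BRCA+ the change at 6 h was called (-1.47, SE 0.57, edgeR adjusted p = 0.033) but rested on single libraries. The edgeR adjusted p of CACNA1C rose to 0.39 without untreated replicate 3, to 0.13 and 0.069 without replicates 3 and 2 at 6 h, and DESeq2's Wald test gave 0.086. CACNA1C lies on the plus strand of chromosome 12 (1970780 to 2697950) and shares 564 exon bases with CACNA1C-AS1 and 552 with ITFG2-AS1 on the opposite strand, whose reads cannot be told apart where strand was not used in counting.

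CACNA1D, the L-type pore that opens at lower voltage, was not called after PDS in either line. PEO4 B held 0.563, 0.653 and 0.829 CPM untreated, 1.05, 0.849 and 0.720 at 2 h and 0.811, 0.702 and 0.778 at 6 h, a change of 0.17 by 6 h (95% interval -0.43 to 0.77). PEO1 BRCA+ held 1.49, 0.909 and 1.62 CPM untreated, 1.45, 1.09 and 1.34 at 2 h and 1.11, 0.910 and 1.17 at 6 h, a change of -0.32 (95% interval -0.83 to 0.19). The gene differed between the lines in opposite directions in the 2 pairs. It was 2.12-fold higher in PEO4 A than in PEO1 A (1.63, 1.25 and 1.59 against 0.774, 0.640 and 0.695 CPM, log2 fold change 1.08, SE 0.30, edgeR adjusted p = 0.0068). It was lower in untreated PEO4 B than in PEO1 BRCA+ (-0.97, SE 0.29, edgeR adjusted p = 0.0046), just inside the fold threshold and therefore not called. It passed that threshold without PEO1 BRCA+ replicate 2 (-1.19) or PEO4 B replicate 3 (-1.13). The differences of the 2 pairs were 2.02 apart (SE 0.37, edgeR adjusted p = 5.5e-05). CACNA1D lies on the plus strand of chromosome 3 (53494611 to 53813733) and shares 1399 exon bases, 7.29% of its annotated exon bases, with CHDH on the opposite strand. The reads of CHDH there cannot be told apart from those of CACNA1D where strand was not used in counting.

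The T-type pores among the 9 genes, CACNA1G and CACNA1H, were scarce in most conditions. CACNA1G had 22, 9 and 8 counts in untreated PEO4 B, 0, 0 and 6 at 2 h and 3, 0 and 0 at 6 h. It fell at 2 h (log2 fold change -3.41, SE 0.72, edgeR adjusted p = 0.00020). All 6 counts at 2 h lay in replicate 3, and without it CACNA1G was at least 14.3-fold lower (computed at 3 counts over the group). At 6 h its pooled rate was 21.7-fold below untreated (95% exact interval 6.90 to 109.8, edgeR adjusted p = 5.4e-05). CACNA1G had all 3 of these 6 h counts in replicate 1, so the size of this ratio rests on that library. In PEO1 BRCA+ it had 6, 3 and 8 counts untreated, 4, 4 and 7 at 2 h and 3, 1 and 1 at 6 h, a pooled rate 5.21-fold lower at 6 h (1.84 to 18.1, edgeR adjusted p = 0.032). That call on CACNA1G was lost without replicate 1 or 3 of the untreated or replicate 2 or 3 of the 6 h libraries, with edgeR adjusted p between 0.079 and 0.13. Between untreated lines CACNA1G was called in neither pair (1.24, SE 0.60, edgeR adjusted p = 0.071 in the second, and 0.97, SE 0.52, edgeR adjusted p = 0.12 in the first). The second passed without untreated PEO4 B replicate 3 (edgeR adjusted p = 0.041) or replicate 3 of PEO4 B at 2 h (0.047).

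CACNA1H had 141 or more counts per library in PEO1 A and at most 20 in any other library. PEO1 A held 180, 141 and 186 counts, or 3.67 ± 0.155 CPM (SD, n = 3), and PEO4 A 10, 12 and 10 counts, a 14.5-fold difference (-3.86, SE 0.32, edgeR adjusted p = 3.8e-07). PEO1 BRCA+ held 20, 6 and 15 counts untreated (0.622 ± 0.357 CPM, SD, n = 3) and untreated PEO4 B 2, 3 and 2, a pooled rate 5.59-fold higher in PEO1 BRCA+ (95% exact interval 2.48 to 14.8, edgeR adjusted p = 0.0027). After PDS PEO1 BRCA+ held 11, 4 and 19 counts at 2 h and 5, 4 and 10 at 6 h. Its 6 h change was called (-1.72, SE 0.55, edgeR adjusted p = 0.011), although the libraries overlapped. The edgeR adjusted p of CACNA1H rose to 0.11 without untreated replicate 1 and to 0.050 without replicate 2 at 6 h. At 6 h the pooled rate of CACNA1H was 19.8-fold higher in PEO1 BRCA+ than in PEO4 B, which held 1 count (95% exact interval 3.14 to 821, edgeR adjusted p = 0.0037). That count lay in replicate 1, so the size of the CACNA1H ratio rests on 1 library. In PEO4 B the gene was also called at 6 h (edgeR adjusted p = 0.044), with at most 3 counts in any library of either group, and it lost the call without any 1 of 5 of those 6 libraries. CACNA1G lies on chromosome 17 (50560715 to 50627474) and CACNA1H on chromosome 16 (1153106 to 1221768), both on the plus strand, and both overlap genes on the opposite strand. CACNA1G shares 309 exon bases with an unnamed antisense transcript, and CACNA1H shares 121 with TPSG1 and 102 with another unnamed one.

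**Figure D2:**
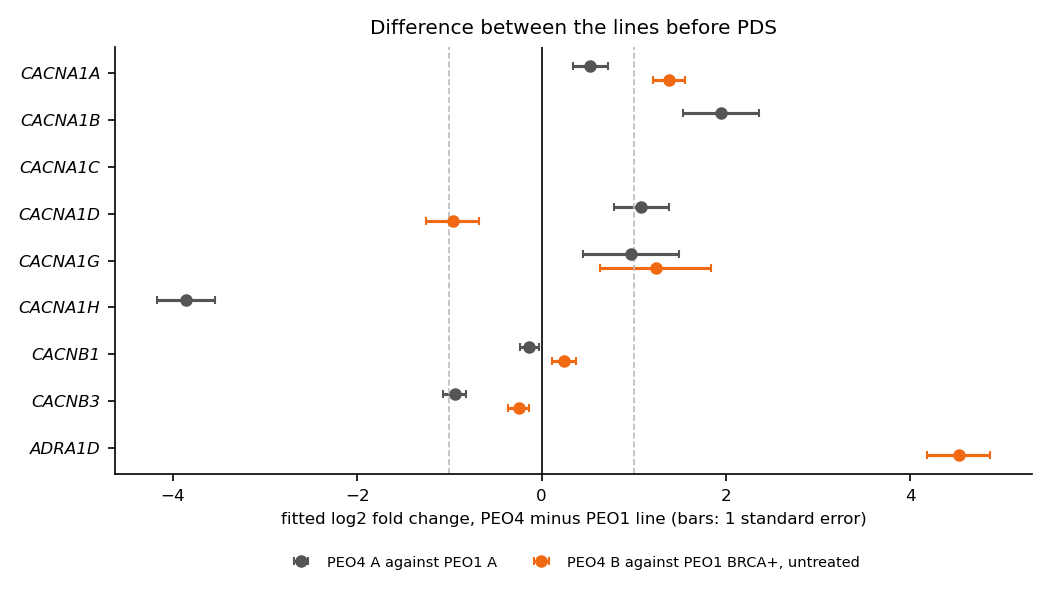
Fitted log2 fold change of PEO4 against the PEO1 line before PDS, in PEO4 A against PEO1 A (grey) and PEO4 B against PEO1 BRCA+ (orange), with bars of 1 standard error and dashed lines at the fold threshold. A point is left out where a group had at most 3 counts in every library or the gene was not tested. CACNA1D lies at 1.08 in one pair and -0.97 in the other.

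Levels of different genes were compared per kilobase of the canonical GENCODE transcript, and the 2 tables were scaled separately, so that levels are set side by side across them without a test. Summed over all 10 alpha1 genes, the level was 1.92 ± 0.141 CPM per kb in PEO1 A, 4.15 ± 0.553 in PEO4 A, 1.06 ± 0.0628 in untreated PEO1 BRCA+ and 2.97 ± 0.417 in untreated PEO4 B (SD, n = 3 each). In PEO4 B the sum was 4.11 ± 0.549 CPM per kb at 2 h and 1.37 ± 0.0743 at 6 h. In PEO1 BRCA+ it was 0.945 ± 0.0556 CPM per kb at 2 h and 0.709 ± 0.0328 at 6 h. CACNA1I, a T-type pore outside the 9 genes, had the highest mean share of the sum in each of the 8 conditions, from 34.8% in PEO1 A to 77.0% in PEO4 B at 2 h. The 6 member pores together held 58.5% ± 5.21 of the sum in PEO1 A and 26.5% ± 1.90 in PEO4 A. They held 46.0% ± 5.22 in untreated PEO4 B, 21.7% ± 1.25 at 2 h and 30.5% ± 1.93 at 6 h, and 49.8% to 55.7% on average in PEO1 BRCA+ (SD, n = 3 each). CACNA1A had the highest mean level of the 6 in every condition, with 0.805 CPM per kb in untreated PEO4 B and 0.231 in PEO1 BRCA+ at 6 h.

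The member pore next to CACNA1A differed by condition. CACNA1H was next in PEO1 A, with 23.4% ± 2.56 of the alpha1 sum. CACNA1D was next in PEO1 BRCA+, with 13.4% ± 3.33 untreated and 16.1% ± 2.42 at 6 h. CACNA1B was next in untreated PEO4 B, with 13.4% ± 5.94, and held 1.33% ± 0.552 at 2 h and 0.286% ± 0.148 at 6 h (SD, n = 3 each). CACNA1D was next in PEO4 A, at 3.88% ± 0.795.

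**Figure D3:**
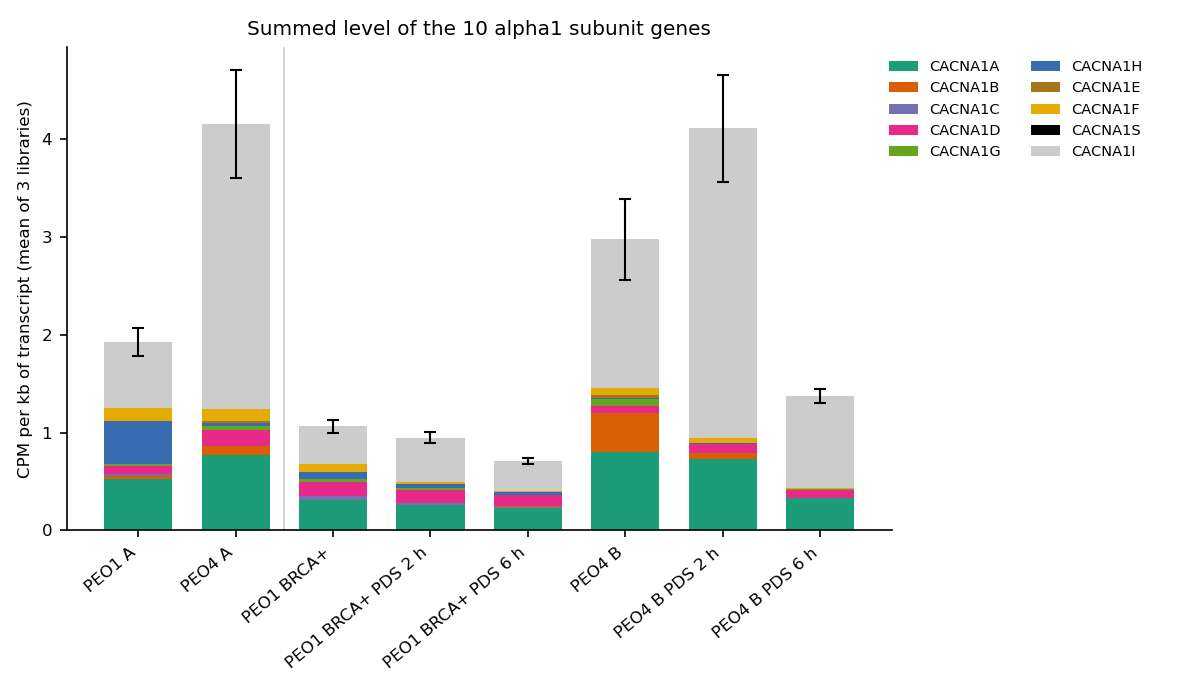
Summed level of the 10 alpha1 genes by condition, in CPM per kb of transcript, stacked by gene, with the SD of the sum over 3 libraries. The grey part is CACNA1I and the coloured parts are the other genes; CACNA1B (orange) is visible in untreated PEO4 B, where it held 13.4% of the sum, and CACNA1H (blue) in PEO1 A.

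The beta subunit genes had the highest levels per kb of the 9 genes in every condition. CACNB1, first described as the beta subunit of skeletal muscle, was lower at 2 h of PDS than before it in both lines. PEO4 B held 14.5, 12.7 and 16.2 CPM untreated, 9.17, 10.7 and 10.4 at 2 h and 17.9, 17.0 and 17.4 at 6 h. The change was -0.52 at 2 h (SE 0.12, edgeR adjusted p = 0.00072) and 0.27 at 6 h (SE 0.12, edgeR adjusted p = 0.046), and from 2 h to 6 h it was 0.79 (SE 0.12, edgeR adjusted p = 3.2e-06). PEO1 BRCA+ held 9.44, 15 and 12.1 CPM untreated, 7.84, 6.31 and 6.14 at 2 h and 9.46, 9.79 and 9.45 at 6 h. Its change was -0.86 at 2 h (SE 0.13, edgeR adjusted p = 5.9e-06), -0.35 at 6 h (SE 0.13, edgeR adjusted p = 0.021), and 0.50 from 2 h to 6 h (SE 0.13, edgeR adjusted p = 0.016). None of these passed the fold threshold. CACNB1 passed it in PEO1 BRCA+ at 2 h when libraries were scaled by their totals alone (-1.01). The lines differed by 0.87 at 6 h (SE 0.12, edgeR adjusted p = 5.4e-07) against 0.24 untreated (95% interval -0.02 to 0.50). PEO1 A (21.9, 21.1 and 23.8 CPM) and PEO4 A (18.8, 21.7 and 20.6) overlapped.

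CACNB3, a beta subunit best known from neurons, was lower at 6 h than untreated in both lines, without overlap. PEO4 B held 9.83, 10.3 and 12.2 CPM untreated, 9.72, 10.3 and 7.80 at 2 h and 7.11, 7.08 and 7.33 at 6 h (-0.59 at 6 h, SE 0.12, edgeR adjusted p = 7.7e-05). PEO1 BRCA+ held 11.5, 15 and 12 CPM untreated, 8.28, 8.51 and 8.62 at 2 h and 8.27, 8.04 and 7.84 at 6 h (-0.67 at 6 h, SE 0.11, edgeR adjusted p = 2.0e-05). The 6 h responses of the lines differed by 0.08 (95% interval -0.25 to 0.42). PEO1 A stood above PEO4 A with 28.6, 22.8 and 25.0 against 11.7, 14.1 and 14.1 CPM (-0.94, SE 0.12, edgeR adjusted p = 2.1e-05), below the fold threshold, and CACNB3 passed it without PEO1 A replicate 2 (-1.02).

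Within each library the per-length ratio of CACNB1 to CACNB3 separated PEO4 at 6 h from the rest. It was 1.99, 1.90 and 1.88 in PEO4 B at 6 h, against 1.17, 0.971 and 1.04 untreated and 0.745, 0.818 and 1.06 at 2 h. In PEO1 BRCA+ it was 0.648, 0.792 and 0.796 untreated, 0.748, 0.586 and 0.563 at 2 h and 0.904, 0.963 and 0.952 at 6 h. PEO1 A lay between 0.606 and 0.753 and PEO4 A between 1.16 and 1.28. CACNB1 therefore led CACNB3 in all PEO4 A and all 6 h PEO4 B libraries, and trailed it in all libraries of PEO1 A and PEO1 BRCA+. CACNB1 lies on the minus strand of chromosome 17 (39173453 to 39197669), where 410 of its exon bases are shared with an unnamed antisense transcript, and CACNB3 on the plus strand of chromosome 12 (48814480 to 48828941).

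**Figure D4:**
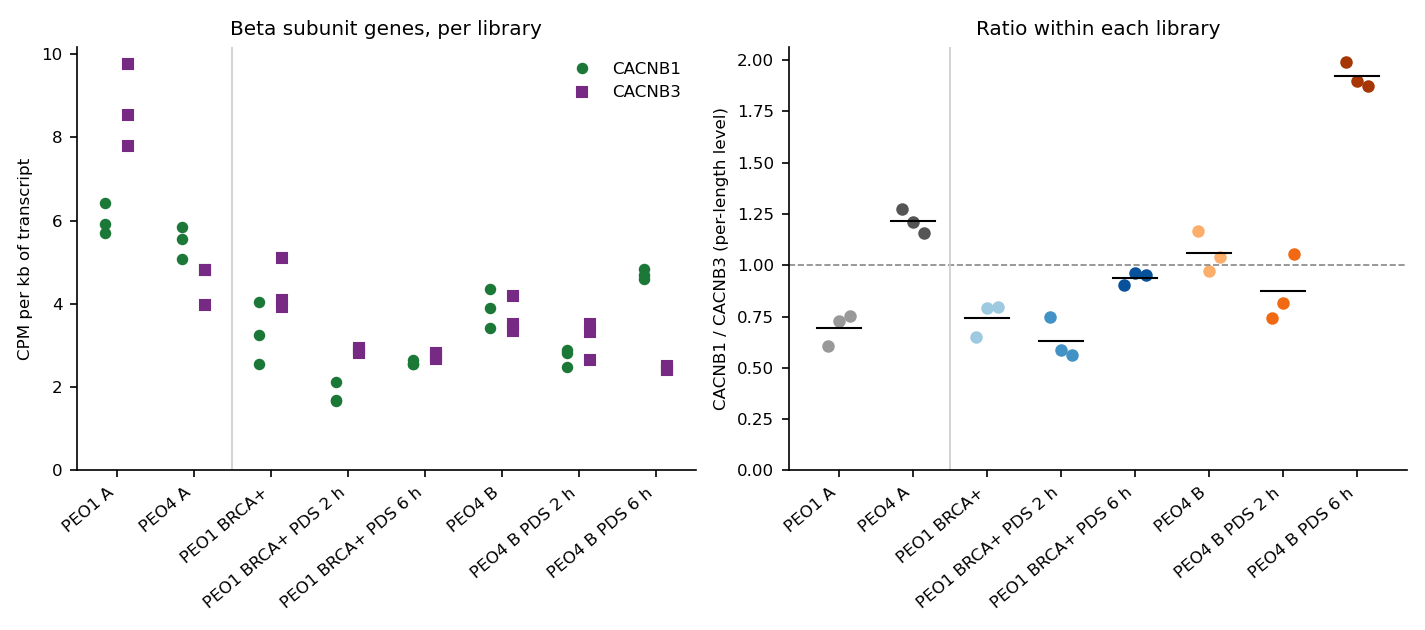
Left, level of CACNB1 (green circles) and CACNB3 (purple squares) in each library, in CPM per kb of transcript. Right, their ratio within each library, with the mean as a black bar and a dashed line at equality; the 6 h PEO4 B libraries lie between 1.88 and 1.99, above all others.

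The order of the conditions of the second table was read for each member from the means. ADRA1D and CACNA1B were highest in untreated PEO4 B, clear of the next condition, and CACNA1A was highest there with overlap of PEO4 B at 2 h. CACNA1G was also highest in untreated PEO4 B, but barely clear of untreated PEO1 BRCA+. Replicate 3 of each held 8 counts of CACNA1G, 0.3685 CPM in PEO4 B against 0.3512. CACNA1C and CACNA1H were highest in untreated PEO1 BRCA+, where they overlapped PEO1 BRCA+ at 2 h. CACNB1 was highest in PEO4 B at 6 h, clear of untreated PEO4 B. CACNB3 and CACNA1D were highest in untreated PEO1 BRCA+, and the neighbouring conditions of CACNA1D overlapped all along its order.

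The summed level of markers of other cell types fell after PDS in both lines, but the single cell types did not all follow it. Of 13 markers of neurons, muscle, fibroblasts, endothelium and leukocytes, between 4 and 8 were above 3 counts in a condition. PTPRC and MYH7 were at or under 3 counts in all 24 libraries. The summed level of the 13 markers was 19.0 to 34.6 CPM in untreated PEO4 B, 6.79 to 9.09 at 2 h and 4.15 to 4.67 at 6 h. In PEO1 BRCA+ it was 11.9 to 14.8 CPM untreated, 7.28 to 8.14 at 2 h and 6.55 to 7.32 at 6 h. In PEO1 A it was 32.2 to 37.3 CPM and in PEO4 A 8.80 to 15.5. COL1A1, which carcinoma cells may also transcribe, was the most abundant of them in PEO4 B, at 22.1 CPM untreated and 2.80 at 6 h, and the fibroblast markers LUM and DCN were above 3 counts in some untreated PEO4 B library and at or under 3 in the other conditions of the second table. COL1A1 thus made up most of the sum in untreated PEO4 B. The neuron markers summed to 2.94 to 4.32 CPM there and 1.39 to 1.70 at 2 h, but to 6.66 to 7.60 in untreated PEO1 BRCA+. In PEO4 B the striated muscle markers went from 0.184 to 0.216 CPM untreated up to 0.336 to 1.05 at 2 h. The endothelial markers went from 0.753 to 1.98 CPM down to 0.142 to 0.306. The part of these markers in the falls of ADRA1D, CACNA1A, CACNA1B and CACNA1G was not tested.

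Of 18 genes for other subunits of these channels, 12 were tested in the first table and 11 in the second, and CACNA1S, CACNG2, CACNG3, CACNG5, CACNG6 and CACNG7 were tested in neither. In PEO4 B at 6 h 1 rose and 5 fell, where 6.26% of all tested genes rose and 16.3% fell, and in PEO1 BRCA+ 2 fell (6.83% of all genes). CACNA1E, an R-type pore, and CACNG1, the gamma subunit of skeletal muscle, were among the 5, with pooled rates 17.3-fold (95% exact interval 5.39 to 88.2, edgeR adjusted p = 5.0e-05) and 14.2-fold lower (6.09 to 40.5, edgeR adjusted p = 0.00016). CACNG4, a gamma subunit that also serves AMPA receptors as a TARP, stood at 169.5 ± 42.9 CPM in untreated PEO4 B, 87.6 ± 21.6 at 2 h and 20.0 ± 2.69 at 6 h (SD, n = 3 each), an 8.51-fold fall by 6 h (-3.09, SE 0.20, edgeR adjusted p = 9.5e-09). In PEO1 BRCA+ it had 188 ± 11.9 CPM untreated and 161 ± 3.25 at 6 h (SD, n = 3 each), and the responses differed by -2.87 (SE 0.27, edgeR adjusted p = 1.6e-06).

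CACNA1I rose in PEO4 B at 2 h, from 15.2 ± 3.62 to 31.7 ± 4.37 CPM (log2 fold change 1.07, SE 0.14, edgeR adjusted p = 6.6e-07), and stood at 9.41 ± 0.446 CPM at 6 h (SD, n = 3 each). It was higher in PEO4 than in the PEO1 line in both pairs, by 2.11 (SE 0.14, edgeR adjusted p = 7.3e-08) in the first and 1.97 (SE 0.17, edgeR adjusted p = 1.2e-09) in the second. CACNA2D1, the alpha2delta subunit to which gabapentin binds, rose in PEO4 B from 6.87 ± 1.88 CPM to 16.6 ± 0.499 at 6 h (SD, n = 3 each, log2 fold change 1.28, SE 0.14, edgeR adjusted p = 1.3e-08), and the responses differed by 1.83 (SE 0.20, edgeR adjusted p = 8.5e-08). CACNA2D2 fell in PEO4 B by 6 h (-2.60, SE 0.39, edgeR adjusted p = 1.7e-06), as did CACNA1F, an L-type pore of the retina (-2.71, SE 0.62, edgeR adjusted p = 0.00039). CACNA1F also fell in PEO1 BRCA+ (-2.33, SE 0.56, edgeR adjusted p = 0.0011). CACNB4 was higher in PEO4 in both pairs (3.68, SE 0.56, edgeR adjusted p = 9.7e-05, and 3.19, SE 0.49, edgeR adjusted p = 3.0e-06) and was not called after PDS. CACNB2 was lower in PEO4 in both (-1.10, SE 0.30, edgeR adjusted p = 0.0064, and -1.04, SE 0.37, edgeR adjusted p = 0.014). CACNA2D3 was 3.46 ± 0.306 CPM in PEO1 A and 0.243 ± 0.107 in PEO4 A (SD, n = 3 each), a difference not called in the second pair, and the pairs differed by -3.36 (SE 0.34, edgeR adjusted p = 5.4e-09). CACNG8, a gamma subunit that serves AMPA receptors, was at 1.26 ± 0.374 CPM in PEO1 A (SD, n = 3) and at 0 counts in PEO4 A, at least 55.0-fold lower (edgeR adjusted p = 1.1e-05). It was also at 0 counts in untreated PEO4 B, at least 5.09-fold below PEO1 BRCA+ (edgeR adjusted p = 0.0015). CACNA2D4 was lower in PEO4 A than in PEO1 A (-1.64, SE 0.41, edgeR adjusted p = 0.0037) and was not tested in the second table.

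Of 7 other adrenergic receptor genes, 5 were tested in the first table and 4 in the second, and 3 fell in PEO4 B at each time of PDS (11.0% of all genes fell at 2 h and 16.3% at 6 h). EdgeR called 0 of them in PEO1 BRCA+ at either time (7.57% of all genes were called at 2 h, and 6.83% fell at 6 h), where 3 at 2 h and 2 at 6 h had an adjusted p under 0.05 with a smaller change. ADRA2C, which couples to Gi, stood at 21.7 ± 3.20 CPM in untreated PEO4 B, 6.24 ± 0.969 at 2 h and 1.99 ± 0.0919 at 6 h (SD, n = 3 each), a change of -3.44 (SE 0.14, edgeR adjusted p = 3.9e-16). PEO1 BRCA+ held 3.25 ± 0.234 CPM untreated and 2.80 ± 0.382 at 6 h (SD, n = 3 each), and the responses differed by -3.22 (SE 0.22, edgeR adjusted p = 2.2e-11). ADRA2C was also higher in PEO4 A than in PEO1 A (1.63, SE 0.22, edgeR adjusted p = 5.9e-05), where ADRA1D was not, as was ADRA2B (1.07, SE 0.38, edgeR adjusted p = 0.026). ADRA2A fell in PEO4 B at 2 h (-2.27, SE 0.24, edgeR adjusted p = 1.1e-08) and 6 h (-1.52, SE 0.22, edgeR adjusted p = 1.4e-06), and so did ADRB1 (-1.06, SE 0.34, edgeR adjusted p = 0.0075 at 2 h, and -1.27, SE 0.35, edgeR adjusted p = 0.0022 at 6 h). ADRA1B, which couples to Gq like ADRA1D, had a higher mean level per kb than ADRA1D in every condition, 9.19 against 1.88 CPM per kb in untreated PEO4 B. It had 23.0 ± 6.75 CPM in untreated PEO4 B and 29.3 ± 1.59 at 6 h (SD, n = 3 each, 0.35, SE 0.13, edgeR adjusted p = 0.020), below the fold threshold.

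**Figure D5:**
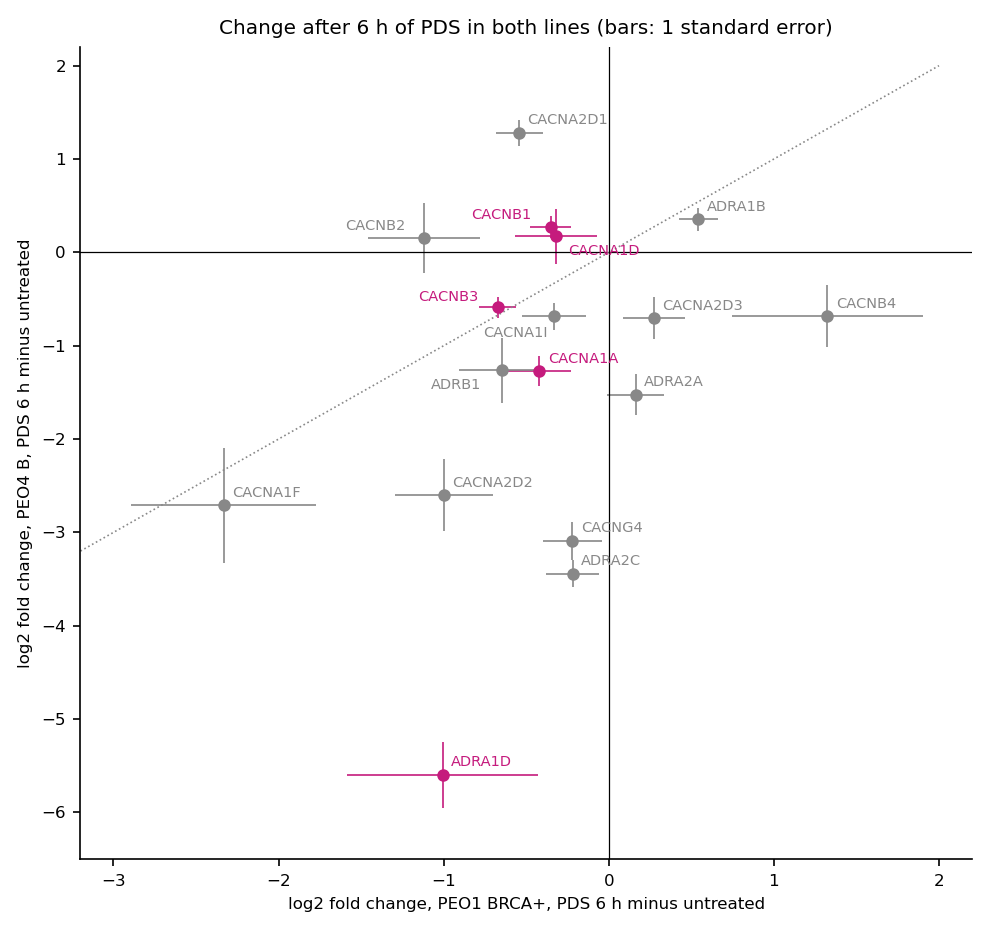
Fitted log2 fold change after 6 h of PDS in PEO1 BRCA+ (horizontal) and PEO4 B (vertical) for 17 tested genes of the 2 families that had more than 3 counts in some library of every group compared, with bars of 1 standard error and a dotted line of equal change. The 5 members drawn are in magenta; ADRA1D lies at -5.60 in PEO4 B, and CACNA2D1 at 1.28 there.

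The steps downstream of Gq and of calcium entry were read from lists of pathway genes, whose counts stand beside 6.26% of all tested genes that rose and 16.3% that fell in PEO4 B at 6 h, and 6.83% that fell in PEO1 BRCA+. The RGK and STAC genes, which adjust channel number at the membrane, had 6 of 7 members tested in the second table, of which 1 rose and 3 fell in PEO4 B at 6 h. GEM, an RGK protein that inhibits the channels through the beta subunit, rose there from 8.21 to 19.9 CPM on average (log2 fold change 1.30, SE 0.31, edgeR adjusted p = 0.0022). Of 23 genes of the Gq, phospholipase C and IP3 steps, all tested, 2 rose and 6 fell in PEO4 B at 6 h, with a median log2 fold change of -0.83 (-0.67 with genes at the counting limit set to their bound) against -0.03 over all genes. In PEO1 BRCA+ 1 fell, with a median of -0.13. PLCB4, a phospholipase C beta activated by Gq, rose in PEO4 B (1.33, SE 0.08, edgeR adjusted p = 1.7e-13), and PLCG2 and PLCD1 fell (-2.02, SE 0.17, edgeR adjusted p = 4.5e-08, and -1.74, SE 0.08, edgeR adjusted p = 6.0e-15). Before PDS, PLCB4 was lower in PEO4 in both pairs (-2.43, SE 0.09, edgeR adjusted p = 2.6e-10, and -3.34, SE 0.08, edgeR adjusted p = 2.2e-21) and PLCG2 higher (1.21, SE 0.10, edgeR adjusted p = 5.2e-07, and 2.57, SE 0.19, edgeR adjusted p = 7.4e-09).

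Of 11 genes of store release and refilling, 2 fell in PEO4 B at 6 h (16.3% of all genes) and 3 in PEO1 BRCA+ (6.83%). ORAI3, a pore of store-operated entry, fell in both lines by 6 h (-1.89, SE 0.19, edgeR adjusted p = 5.5e-09 in PEO4 B, and -1.50, SE 0.23, edgeR adjusted p = 8.4e-06 in PEO1 BRCA+). Of 11 genes of export and mitochondrial uptake, 7 were tested and 1 fell in PEO4 B at 6 h, the plasma membrane pump ATP2B4, from 251 to 102 CPM on average (-1.30, SE 0.07, edgeR adjusted p = 2.6e-14). SLC8A1, a sodium-calcium exchanger, fell in PEO4 B at 2 h (-3.14, SE 0.30, edgeR adjusted p = 1.2e-07) and rose from 2 h to 6 h (2.17, SE 0.31, edgeR adjusted p = 1.6e-05). Of 29 calcium readers such as calmodulin, its kinases and calcineurin, 26 were tested, and 2 rose and 4 fell in PEO4 B at 6 h, shares near those of all genes (6.26% and 16.3%). CAMK1D, a calmodulin-dependent kinase, fell from 38.6 to 3.34 CPM on average (-3.54, SE 0.34, edgeR adjusted p = 6.7e-07), and PPP3CC, a catalytic subunit of calcineurin, rose (1.44, SE 0.10, edgeR adjusted p = 3.6e-12). MYLK, the myosin light chain kinase, fell in PEO1 BRCA+ at 2 h and 6 h (-1.41 at 6 h, SE 0.16, edgeR adjusted p = 1.5e-06) and in PEO4 B at 2 h (-1.04, SE 0.13, edgeR adjusted p = 4.1e-06). The gene lists were written with earlier results of these data known. The genes named from them here and in the preceding paragraph were picked because they were called with the largest changes. Their adjusted p-values therefore describe the change and are no independent evidence.

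For each member the genes with the most similar profile were named by Pearson's r of log2 CPM over the 18 libraries of the second table, among 12845 genes. The libraries share conditions and depth, so r describes the profile only. ADRA1D was closest to FOXO6 (r = 0.968) and PDZD2 (r = 0.965). CACNA1A was closest to ITM2C and WIPF1 (r = 0.969 each), and CACNA1B to TMPRSS4 (r = 0.975) and ITM2B (r = 0.971). CACNA1C was closest to LAGE3 (r = 0.958) and TRIM16L (r = 0.941), and CACNA1H to NF1 (r = 0.914) and ATP2B4 (r = 0.910). CACNB1 was closest to ZNF764 (r = 0.944) and CCDC142 (r = 0.920), CACNB3 to ADGRB2 (r = 0.923) and BMP8B (r = 0.911), and CACNA1G to FOXRED2 (r = 0.913) and IREB2 (r = 0.885). CACNA1D had the loosest match, with ST3GAL2 (r = 0.869) and WNT2B (r = 0.862).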

How the data were processed

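RNA was sequenced from 24 samples of PEO1 and PEO4 cells in 8 conditions of 3 samples, described as biological replicates. Separate cultures are not stated, so the p-values measure the spread between these samples only. The authors deposited raw read counts per gene in 2 tables. Their processing notes name FastQC, fastp, STAR, featureCounts and hg38, while versions, annotation and strand setting were not given in the sources used here. Lines without readable counts or without a gene name of their own were left out (2 and 1), and 28277 genes remained in each table.

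Each table was fitted on its own with edgeR 4.0.16 in R 4.3.3 (TMM scaling, filterByExpr with a minimum count of 10 and a total of 15, robust quasi-likelihood test over all its conditions, 15882 and 17020 genes tested), with Benjamini-Hochberg adjustment. The difference of the 2 pairs was fitted on all 24 libraries (17531 genes). A gene was called when its log2 fold change exceeded 1 in either direction with an adjusted p below 0.05. CPM were computed on TMM-scaled library sizes. A group with at most 3 counts in every library was treated as at the counting limit: a fitted fold change between it and 1 other group is not printed, and a bound at 3 counts over the group (where all were 0) or a ratio of pooled rates with an exact Clopper-Pearson 95% interval is given instead. Intervals and limits cover counting error only. Per-length levels used canonical GENCODE v44 transcripts, and promoters were read from RefSeq. The fit was tested on simulated counts beforehand.

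The 9 genes, the pathway lists and the markers were chosen with earlier results of these data known. The text names these 9 genes, the other tested channel subunits and adrenergic receptors (1 gene is not reported here), BRCA2, the 2 genes most like each member (mean log2 CPM of at least 1), and, of each wider list, genes among the 2 called with the largest change in each direction at that level. Alternatives were adjusted p alone, library totals, DESeq2 1.42.0 size factors and Wald test, upper-quartile scaling, no filter, only the compared groups, a replicate block, leaving out each library, and longer motif loops. Figures were drawn with matplotlib 3.10.9.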

Additional observations from a re-analysis of the deposited data

Results flagged for a closer look

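Responses to PDS that differed between the lines, or line differences that differed between the 2 pairs, were found for 3 members by edgeR's test of the difference itself. For ADRA1D the response of PEO4 B minus that of PEO1 BRCA+ was -3.81 at 2 h and -4.59 at 6 h on the log2 scale. For ADRA1D the difference of the first pair minus that of the second was -7.99 (edgeR adjusted p = 5.9e-08), with 2, 0 and 0 counts in PEO4 A, so that this fitted value depends on the prior count and is no bound. CACNA1B gave -6.89 for the 6 h responses (edgeR adjusted p = 0.0080) and -4.95 for the pairs (edgeR adjusted p = 0.00020). Both CACNA1B values rest on groups with almost no counts in PEO1 BRCA+ and likewise depend on the prior count. A fall of CACNA1B in PEO1 BRCA+ could not have been seen, and the first call was lost without 1 library. For CACNA1D the pairs differed by 2.02 (edgeR adjusted p = 5.5e-05), with PEO4 above PEO1 in the first pair and below PEO1 BRCA+ in the second, and every group was above the counting limit. The part of CHDH reads in this CACNA1D difference was not tested. The pairs differ in line variant and medium, a library kit is named only for the first, and these cannot be told apart here.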

How the results depend on the processing

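Over settings other than leaving out a library, 678 log2 fold changes of members kept their direction and side of the threshold, 21 newly passed and 1 no longer did, CACNA1C in PEO1 BRCA+ at 6 h under DESeq2's Wald test. Of the 21, 19 passed because the fold threshold was dropped. With adjusted p alone, the members called became 4 between the lines at 6 h, 2 in PEO1 BRCA+ at 2 h, 5 there at 6 h, 1 there from 6 h against 2 h, 4 in PEO4 B from 6 h against 2 h, 4 for the difference of the 6 h responses and 5 for the difference of the pairs. By the same rule CACNA1A and CACNB3 newly passed between PEO4 A and PEO1 A, and CACNA1D between the untreated lines of the second table. CACNB1 newly passed in PEO4 B at 2 h, and CACNB1 and CACNB3 there at 6 h. Fits with only the groups compared, whose filter tests fewer members, called 3 members between the untreated lines of the second table, 0 between the lines at 6 h and 0 in PEO1 BRCA+ at 6 h. They were not run for the first table, where they equal the main design. Scaling by library totals called 1 member in PEO1 BRCA+ at 2 h, CACNB1, and the cause was not tested. It moved the median of all genes by -0.13 to -0.16 in the PDS comparisons with untreated cells and reversed no member, and it changed the genes called in PEO4 B at 6 h from 1066 higher and 2782 lower to 698 higher and 3334 lower. Over all genes, adjusted p alone raised the calls in every comparison, for example from 4095 to 9787 between PEO4 A and PEO1 A, from 1383 to 9024 in PEO1 BRCA+ at 6 h and from 3848 to 11881 in PEO4 B at 6 h. In PEO1 BRCA+ from 2 h to 6 h it raised them from 29 to 1182, where DESeq2's Wald test called 15. Loops of up to 12 bases found the promoter motif in all 8 member windows and in 12433 of all windows.

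Leaving out 1 library at a time gave 0 to 2 members called in PEO1 BRCA+ at 2 h, 1 to 4 there at 6 h, 1 to 2 for the difference of the 2 h responses and 1 to 2 for that of the 6 h responses. Between untreated lines it gave 3 to 5 in the first table and 5 to 7 in the second. In PEO4 B it gave 4 to 5 at 6 h and 2 to 3 from 2 h to 6 h, and for the difference of the pairs 3 to 4. Signs changed for uncalled values only. The ranges were -0.42 to 0.62 for ADRA1D between the lines at 6 h, -0.99 to 0.050 for ADRA1D in PEO1 BRCA+ from 2 h to 6 h and -0.27 to 0.13 for CACNA1D in PEO1 BRCA+ at 2 h. They were -0.74 to 0.045 for CACNA1C in PEO1 BRCA+ from 2 h to 6 h, -0.26 to 0.038 for CACNA1A in PEO4 B at 2 h and -0.024 to 0.28 for CACNA1A in the difference of the 2 h responses. They were -0.046 to 0.19 for CACNB3 in the difference of the 6 h responses, and -2.58 to 0.65 for CACNA1C and -0.68 to 0.24 for CACNA1G in the difference of the pairs. Same-numbered replicates did not deviate together (correlations of -0.0429 to 0.0228 in the first table and -0.158 to 0.134 in the second, 1 of 45 pairs over 0.1), so the number was not taken as a pairing. With the replicate block 2 members were called for the difference of the 2 h responses, CACNA1G being the added call (edgeR adjusted p = 0.048), and no other member call changed. Depth limits CACNA1C, CACNA1G, CACNA1H outside PEO1 A, ADRA1D outside untreated PEO4 B, and CACNA1B in PEO1 BRCA+ and in PEO4 B at 6 h, where libraries held few counts.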
